A study of Mus musculus with 8 samples.

Results

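The interferon-inducible GTPases were followed through prostate RNA of 8 male NOD mice: 7 immunity-related GTPases (IRG; Irgm1, Irgm2, Igtp, Iigp1, Ifi47, Tgtp1 and Tgtp2) and 3 guanylate-binding proteins (GBP; Gbp2, Gbp3 and Gbp7). These 10 genes are 10 of the 54532 genes in the count table and were taken by their gene symbols. They were selected on their lower counts in etanercept-treated than in control mice, so the values of that comparison describe them and test nothing. All 10 passed the filter on low counts, which 15472 genes passed in all.

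NOD mice of the inbred NOD/ShiLtJ background carry a spontaneous autoimmune disease and have an inflamed, hyperplastic prostate. The control group received PBS and the treated group received 4 mg/kg etanercept, a soluble TNF receptor fused to an antibody tail, which binds TNF. Both were injected into the peritoneum 2 times a week for 5 weeks from an age of 25 weeks and harvested at 30 weeks. The control mice bear the animal numbers 1, 3, 65 and 69 and the etanercept-treated mice 17, 19, 50 and 52. Each library is the whole prostate of 1 mouse, diabetic and non-diabetic mice were pooled, and treated mice of the study formed antibodies to the drug.

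IRG and GBP proteins are GTPases that cells make in large amounts when they sense interferon, above all IFN-γ. They gather on the vacuoles in which intracellular parasites and bacteria live, and there they break the vacuole membrane, call in ubiquitin and autophagy proteins and open the way to the inflammasome. Among the IRG proteins, Irgm1, Irgm2 and Igtp (also named Irgm3) are regulators that sit on the cell's own membranes and hold the others inactive, while Iigp1, Ifi47, Tgtp1 and Tgtp2 are effectors that load onto the vacuole. The genes are switched on through GAS elements, which answer to IFN-γ, and through interferon-stimulated response elements (ISRE), to which IRF proteins bind.

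The promoters of the members were searched for these elements. RefSeq windows of GRCm38.p6, from 250 bases before to 50 bases after the transcription start, were at hand for 9 of the 10 genes. An ISRE core, searched on both strands as GAAA, any 2 bases and GAAA again, stood in 8 of the 9 and in 3.44% of all 32851 windows. A GAS element, searched as TTCNNNGAA, stood in 5 of the 9 and in 8.3% of all windows, and both together in the same 5 and in 0.454% of all windows. The kB consensus, to which the NF-κB proteins below the TNF receptors bind, was matched in 0 of the 9 and in 4.51% of all windows. No match says only that the letters are not in that window, and Ifi47 had none of the 3 motifs in its window.

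The stretches that hold the matches are shown with 15 bases on either side, as the strand of the gene reads them, because they show which members share the same arrangement. Capitals mark ISRE cores (TTTC, 2 bases and TTTC where they lie on the other strand) and GAS elements; the first 5 IRG stretches are followed by those of Gbp2, Gbp3 and Gbp7.
Irgm1: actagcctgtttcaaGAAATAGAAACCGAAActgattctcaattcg
Irgm2: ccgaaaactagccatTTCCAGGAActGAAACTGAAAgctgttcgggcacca
Igtp: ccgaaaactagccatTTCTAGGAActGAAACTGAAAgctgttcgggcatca
Tgtp1: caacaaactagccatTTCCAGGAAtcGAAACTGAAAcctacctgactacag
Tgtp2: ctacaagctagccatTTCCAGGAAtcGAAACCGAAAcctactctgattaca
Gbp2: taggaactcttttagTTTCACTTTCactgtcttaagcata
Gbp3: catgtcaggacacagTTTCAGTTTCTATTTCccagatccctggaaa
Gbp7: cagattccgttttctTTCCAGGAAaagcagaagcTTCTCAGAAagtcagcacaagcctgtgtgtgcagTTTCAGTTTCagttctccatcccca

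In Irgm2, Igtp, Tgtp1 and Tgtp2 a GAS element is followed by an ISRE core after 2 bases. The windows of Igtp and Irgm2 share an unbroken run of 61 bases and those of Tgtp1 and Tgtp2 one of 27 bases. Irgm1 and Gbp3 carry a pair of overlapping ISRE cores and no GAS element, and Gbp2 a single core. Gbp7 carries 2 GAS elements and, 25 bases after the second, an ISRE core. On GRCm38.p6 the stretch of Irgm1 lies at chr11:48871420-48871465 on the minus strand, that of Irgm2 at chr11:58214887-58214937 and that of Igtp at chr11:58199496-58199546 on the plus strand. Those of Tgtp1 and Tgtp2 lie at chr11:48992299-48992349 and chr11:49064258-49064308 on the minus strand. Those of Gbp2, Gbp3 and Gbp7 lie at chr3:142620589-142620628, chr3:142559984-142560029 and chr3:142530215-142530307 on the plus strand. They are those of the reference strain, and the NOD alleles were not examined here.

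In the GENCODE M21 annotation of GRCm38, 6 of the 7 IRG members lie on chromosome 11 and the 3 GBP members on chromosome 3. All 10 are protein-coding. Irgm1 spans chr11:48861968-48871683 and Ifi47 chr11:49076587-49096974, with Tgtp1 at chr11:48985327-48994172 and Tgtp2 at chr11:49057194-49064206 between them. Igtp (chr11:58199556-58207591) and Irgm2 (chr11:58199618-58222782) start close together on the same strand in this annotation and share 162 bases of exon. The RefSeq window searched for Irgm2, chr11:58214727-58215026, belongs to another start, inside Irgm2 and beyond the end of Igtp. Gbp7 spans chr3:142530342-142550149, Gbp3 chr3:142560026-142573209 and Gbp2 chr3:142620602-142638008. Tgtp1 and Tgtp2 are near copies, so their reads may be split between them: 62.5% of the 150-base windows of Tgtp1 transcripts were also found in Tgtp2, and 68.4% of those of Tgtp2 in Tgtp1. Gbp7 shares 8.77% of its windows with the pseudogene Gm43802. Ifi47 overlaps the exons of Olfr56 by 111 bases and those of the antisense pseudogene Gm12188 by 106 bases.

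The total count per mouse lay between 13760669 and 25178942, and the TMM factors between 0.917 and 1.10. After Benjamini-Hochberg adjustment, edgeR's quasi-likelihood test called 0 of 15472 genes (0%), with a smallest adjusted p of 0.739. At an unadjusted p up to 0.05, 561 genes (3.63%) stood lower and 463 (2.99%) higher with etanercept, and DESeq2 called 21 genes after adjustment, 15 of them lower (0.0804% of 18664). The biological coefficient of variation between mice of a group was 0.547. The lowest member count was the 41 of Tgtp1 in etanercept 19, or 2.08 CPM of the unscaled total (Wilson 95% interval 1.53 to 2.82), and the highest the 5608 of Igtp in control 1, or 222.7 CPM (217 to 228.6). In a whole tissue, fewer cells of a type and less RNA per cell cannot be told apart.

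All 10 members had a lower mean with etanercept, as the choice of genes fixed, with a median log2 change of −0.90 against −0.010 for all tested genes, of which 51% were negative. The 10 added up to 643.7, 393.1, 289.2 and 160.1 CPM in control 1, 3, 65 and 69 and to 226.7, 151.7, 178.7 and 249.7 CPM in etanercept 17, 19, 50 and 52. Control 1 and control 3 stood above every treated mouse in this sum, control 65 stood just above them, and control 69 stood among them. In 0 of the 10 genes did every etanercept-treated mouse lie below every control mouse, which was the case in 2.53% of tested genes, nor did every treated mouse lie above every control (2.41%). At an unadjusted p up to 0.05, 3 members were lower in edgeR, all of them IRG genes, beside 3.63% of all tested genes, and 0 passed the adjusted threshold in edgeR or DESeq2; since the rule used this contrast, nothing is read from these counts.

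Control 1 weighed heavily in the means. It held the highest level of all 8 mice in 6 of the 10 members, beside 19.2% of tested genes, and control 3 held it in the other 4. The level of control 1 was between 1.15 times (Gbp2) and 4.26 times (Tgtp1) the mean of the other 3 controls, and at least 2 times that mean in 5 members, beside 11.9% of tested genes. Without control 1, all 10 changes remained negative, beside 51.5% of tested genes, but their median moved from −0.90 to −0.38. The median of the 7 IRG genes went from −0.91 to −0.32, while that of the 3 GBP genes went from −0.50 to −0.44. Gbp2 and Gbp3 depended more on control 3, without which Gbp2 went from −0.47 to −0.24 and Gbp3 from −0.63 to −0.36. At an unadjusted p up to 0.05, 1 member was then lower, beside 2.82% of all genes.

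**Figure D1:**
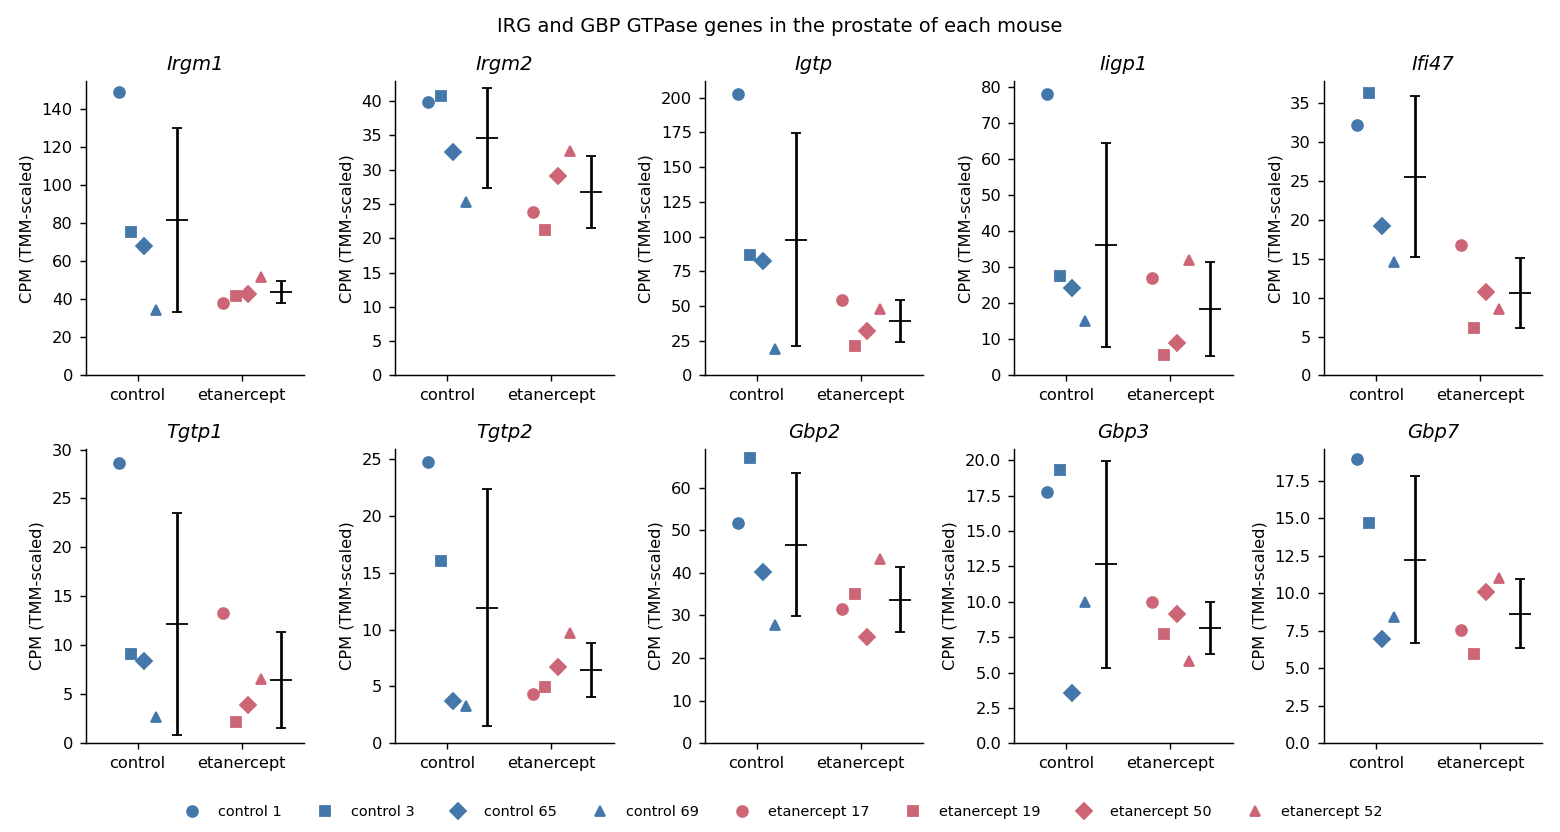
Level of each of the 10 genes in each mouse, as TMM-scaled CPM on linear axes that start at 0; each point is 1 mouse, and the black bar with whiskers is the mean with its SD over the 4 mice of a group. Control 1 and control 3 (circle and square, blue) are the highest control mice in all 10 genes, and in Igtp control 69, at 18.7 CPM, is the lowest of all 8 mice.

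Among the 3 regulators the log2 change ran from −1.33 in Igtp to −0.37 in Irgm2. Irgm1, whose product sits on the Golgi, mitochondria and lysosomes and supports autophagy, had 149, 75.4, 67.8 and 34.5 CPM in control 1, 3, 65 and 69 and 37.97, 41.6, 43.0 and 51.6 CPM in etanercept 17, 19, 50 and 52. Control 1, 3 and 65 were above every treated mouse and control 69 was below them all. The means were 81.6 ± 48.2 and 43.6 ± 5.79 CPM (SD, n = 4 each), and the log2 change was −0.91 (SE 0.37), or −0.46 (SE 0.27) without control 1. The treated mice lay close together, with a highest to lowest ratio of 1.36 against 4.31 in the controls.

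Igtp, a regulator on the endoplasmic reticulum and lipid droplets, had 203, 86.8, 82.7 and 18.7 CPM in the controls in the same order and 54.3, 21.1, 32.0 and 48.2 CPM in the treated mice. Its order was that of Irgm1: 3 controls above every treated mouse and control 69 at the bottom. Its log2 change of −1.33 (SE 0.59) was the most negative of the 10 over all 8 mice, and it was −0.71 (SE 0.50) without control 1, when Ifi47 was more negative. Irgm2, a regulator on the Golgi, had 39.9, 40.8, 32.5 and 25.2 CPM in the controls and 23.9, 21.2, 29.1 and 32.8 CPM in the treated mice. Control 1 and 3 stood above the treated mice, and etanercept 52 matched control 65. Its change was the nearest to 0 of the 10 over all 8 mice, though not without control 1, with 34.6 ± 7.28 and 26.7 ± 5.20 CPM (SD, n = 4 each) and a log2 change of −0.37 (SE 0.22), which was −0.32 (SE 0.24) without control 1. Igtp and Irgm2 thus carry nearly the same GAS and ISRE stretch and differed in their change, a difference that was not tested.

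Among the effectors, Ifi47 (also named Irgd) came nearest to separate groups. It had 32.2, 36.3, 19.2 and 14.5 CPM in control 1, 3, 65 and 69 and 16.7, 6.15, 10.8 and 8.59 CPM in etanercept 17, 19, 50 and 52. Only etanercept 17 reached into the control range, where it lay above control 69. The means were 25.6 ± 10.4 and 10.6 ± 4.52 CPM (SD, n = 4 each). Its log2 change of −1.28 (SE 0.39) depended little on control 1, without which it was −1.17 (SE 0.42). Of the 9 members searched, it alone had neither an ISRE core nor a GAS element in its window.

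Iigp1 (also named Irga6), the IRG protein on which the loading of vacuoles has been worked out, had 78.1, 27.6, 24.4 and 15.1 CPM in the controls and 27.1, 5.72, 9.03 and 32.1 CPM in the treated mice. Etanercept 17 and 52 lay among the controls, and etanercept 19 and 50 lay below every control. Its log2 change was −0.98 (SE 0.63), and −0.30 (SE 0.56) without control 1.

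Tgtp1 and Tgtp2 (both named Irgb6) were low and uneven. Tgtp1 had 28.7, 9.14, 8.38 and 2.66 CPM in the controls and 13.3, 2.19, 3.89 and 6.58 CPM in the treated mice. Tgtp2 had 24.7, 16.1, 3.73 and 3.24 CPM in the controls and 4.37, 4.97, 6.70 and 9.70 CPM in the treated mice. Etanercept 17 was the second highest mouse for Tgtp1, whereas for Tgtp2 control 65 and 69 lay below every treated mouse. The ratio of Tgtp1 to Tgtp2 ran from 0.441 in etanercept 19 to 3.05 in etanercept 17, and how their shared reads were assigned bears on it and was not tested. Added together, they had 53.4, 25.2, 12.1 and 5.90 CPM in the controls and 17.7, 7.17, 10.6 and 16.3 CPM in the treated mice, with a log2 change of −0.90 (SE 0.60). Without control 1 the log2 change was −0.07 (SE 0.66) for Tgtp1 and −0.28 (SE 0.62) for Tgtp2.

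The log2 changes of the 3 GBP genes were nearer to 0 than those of every IRG member but Irgm2 over all 8 mice, a difference that was not tested; without control 1, Tgtp1, Tgtp2 and Iigp1 were nearer to 0 than Gbp2 and Gbp3. Gbp2, whose product coats parasite vacuoles and bacteria, had 51.7, 67.0, 40.1 and 27.7 CPM in control 1, 3, 65 and 69 and 31.4, 35.1, 25.0 and 43.3 CPM in etanercept 17, 19, 50 and 52. Control 3 was highest and etanercept 52 lay above control 65 and 69. Its means were 46.6 ± 16.7 and 33.7 ± 7.65 CPM (SD, n = 4 each), with a log2 change of −0.47 (SE 0.28) and −0.44 (SE 0.31) without control 1.

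Gbp3 had 17.8, 19.3, 3.52 and 10.01 CPM in the controls and 10.02, 7.70, 9.15 and 5.82 CPM in the treated mice. Control 65 had the lowest level of all, so the control mice lay on both sides of the treated ones. Gbp7, which takes part in the assembly of the phagocyte oxidase, had 18.98, 14.7, 6.97 and 8.39 CPM in the controls and 7.57, 5.94, 10.1 and 11.02 CPM in the treated mice. Etanercept 50 and 52 lay above control 65 and 69. The log2 changes were −0.63 (SE 0.48) for Gbp3 and −0.50 (SE 0.38) for Gbp7, and −0.45 (SE 0.52) and −0.23 (SE 0.38) without control 1.

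**Figure D2:**
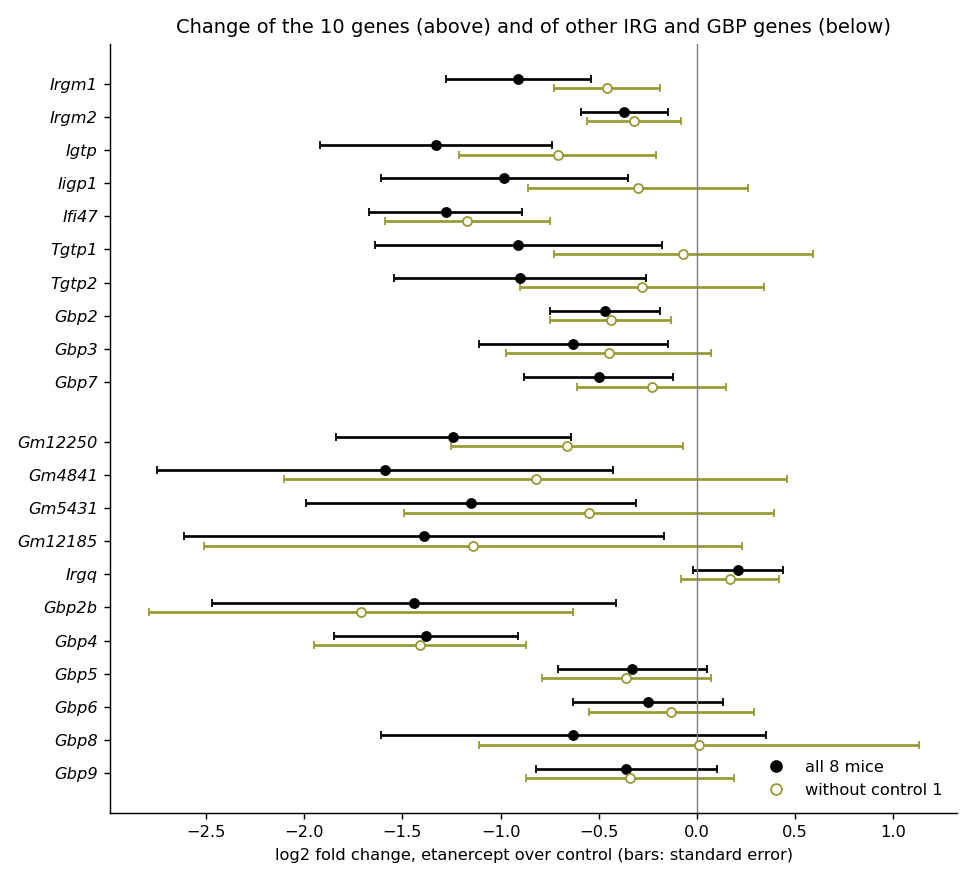
Log2 fold change of etanercept-treated over control mice with its standard error, for the 10 genes and for 11 other IRG and GBP genes, in all 8 mice (filled) and without control 1 (open). Without control 1, Tgtp1 goes from −0.91 to −0.07 and Iigp1 from −0.98 to −0.30, while Ifi47 stays at −1.17 and Gbp4 at −1.41.

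In each of the 10 members the treated mice stood further below the controls among the low animal numbers than among the high ones, a difference that was not tested. In all 10 members, control 1 and control 3 were both above control 65 and control 69, which was so in 16.6% of tested genes. In 8 of the 10, every treated mouse was below control 1 and control 3, beside 10.6% of tested genes; the exceptions were Iigp1 and Tgtp1. Of the mice numbered below 20, the treated pair (17 and 19) had a lower mean than the control pair in 10 of 10 members, with log2 ratios between −2.13 (Tgtp2) and −0.84 and a median of −1.41. Of those numbered above 49, the treated pair (50 and 52) had a lower mean than the control pair in 4 of 10, with log2 ratios between −0.80 (Ifi47) and 1.23 (Tgtp2) and a median of 0.03. Over the 13218 genes with counts in every mouse these medians were 0.02 and −0.01. The treated pair was lower in 6429 of them below 20 and in 6714 above 49. The members were selected for lower counts with etanercept in these mice, which bears on their signs. In Irgm1, for example, the control pairs had means of 112 and 51.1 CPM and the treated pairs 39.8 and 47.3 CPM.

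Igtp, Irgm1, Tgtp1 and Ifi47 were the 4 members with a lower mean in both ranges of numbers. The labels do not say what the numbers mark, so a shared cage, date or block was not tested. With the range as a covariate the median log2 change of the 10 was −0.58, and 1 member was lower at an unadjusted p up to 0.05, beside 2.81% of all tested genes in that fit.

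**Figure D3:**
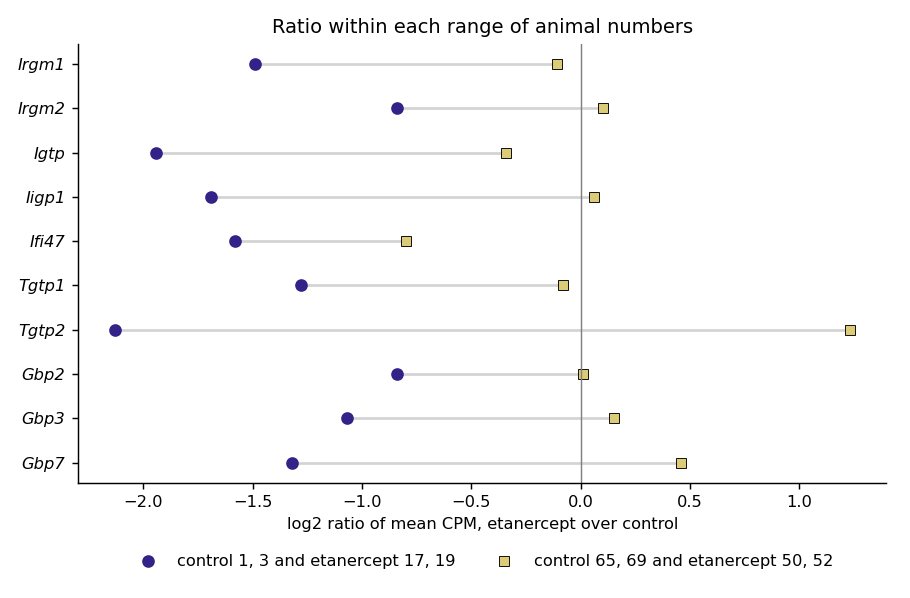
Log2 ratio of the mean CPM of etanercept-treated over control mice, computed within the mice numbered below 20 (circles, 2 mice per group) and within those numbered above 49 (squares, 2 mice per group). All 10 circles lie left of 0, between −2.13 and −0.84, whereas the squares lie on both sides of 0, 4 of them to its left.

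Set on a scale of CPM per kb of exon, on which levels of different genes can be compared, Igtp had the highest mean in the controls, at 48.3 ± 37.9 (SD, n = 4). Gbp2 (18.5), Irgm1 (14.1), Ifi47 (10.3), Irgm2 (9.38) and Iigp1 (6.24) followed, and Tgtp2 (4.07), Gbp3 (3.88), Tgtp1 (3.81) and Gbp7 (2.18) were lowest. No neighbours in this order differed beyond the larger of their SDs. In treated mice the order was Igtp (19.2), Gbp2 (13.4), Irgm1 (7.495), Irgm2 (7.25), Ifi47 (4.27), Iigp1 (3.18), Gbp3 (2.50), Tgtp2 (2.19), Tgtp1 (2.03) and Gbp7 (1.54). There, Gbp2 stood above Irgm1 and Irgm2 above Ifi47 by more than that spread, and other neighbours did not. Regulators (Igtp, Irgm1, Irgm2) and Gbp2 thus held the top 4 places in treated mice, with the effectors below them.

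**Figure D4:**
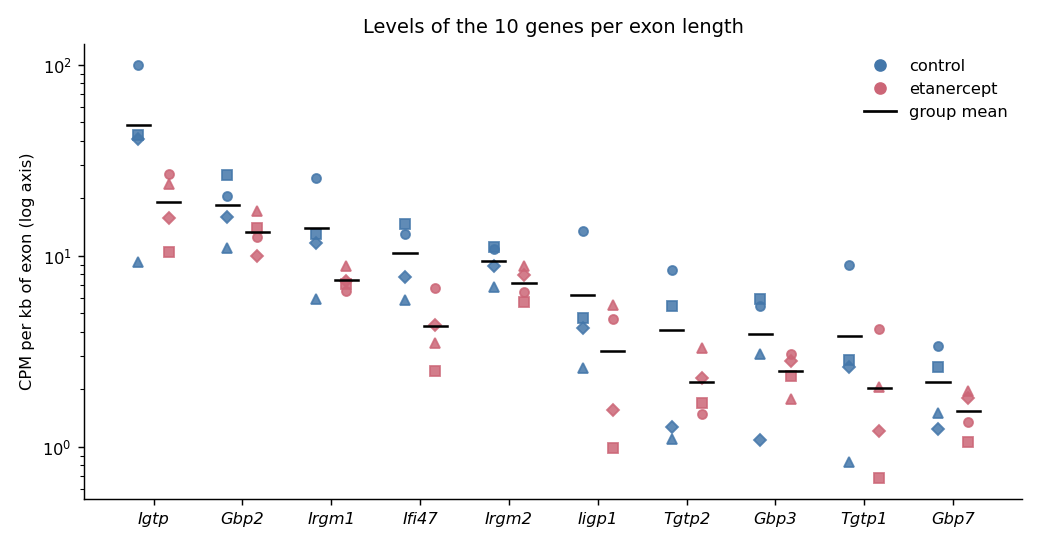
Level of the 10 genes in CPM per kb of exon on a log axis, with 1 point per mouse (shapes as in the plot of levels by mouse) and the group mean as a line. Igtp has the highest group mean in both groups (48.3 and 19.2) and Gbp7 the lowest (2.18 and 1.54).

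The members varied together from mouse to mouse within the groups. Pearson's r between the deviations of 2 members from their group means was positive in all 45 pairs over 8 mice, with a median of 0.64 and a range of 0.231 to 0.941. Both genes of a pair were read from the same libraries and few points stand behind each r, so the values are a description. The median was 0.745 between IRG genes, 0.536 between GBP genes and 0.620 between an IRG and a GBP gene. Without control 1, 42 of 45 pairs were positive, with a median of 0.530. The spread between mice, as the SD of log2(CPM + 1), was widest in the controls for Igtp (1.399), Tgtp2 (1.31) and Tgtp1 (1.23) and narrowest for Irgm2 (0.313).

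The genes whose deviations were most like the mean of the 10 members over the 8 mice included Scml4, Sp3os, Arhgef4, Atp2b3, Smim13, Timeless, Gm5431, Pde10a and Igkv9-124, and the first 10 had an r between 0.967 and 0.986. Of these, Gm5431 is itself an IRG gene. Such likeness was common, since 140 of 15462 other genes had an r over 0.9, and without control 1 it was 359. Only Timeless and Igkv9-124 were also among the 10 most alike without control 1.

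Relatives outside the 10 were measured less well. Of 20 further IRG and GBP genes in the table, 11 passed the filter, and 10 of these 11 had a negative log2 change, with a median of −1.15, or −0.55 without control 1. Only Gbp4 reached an unadjusted p up to 0.05 (1 of 11, beside 3.63%), with 7.12, 11.0, 6.34 and 4.17 CPM in the controls and 2.50, 1.39, 2.99 and 4.09 CPM in the treated mice. Every treated mouse lay below every control mouse for Gbp4, by a narrow gap between etanercept 52 and control 69. Its log2 change was −1.38 (SE 0.47; adjusted p = 0.739 in edgeR) and −1.41 (SE 0.54) without control 1. Gbp5, which takes part in inflammasome activation, had a log2 change of −0.33 (SE 0.38), and Gbp6, Gbp8 and Gbp9 had −0.25, −0.63 and −0.36. The IRG relatives Gm12250, Gm4841, Gm5431 and Gm12185 had log2 changes between −1.59 and −1.15, at low levels of at most 14.6 CPM in any mouse. Irgq, an IRG-like gene that interferon is not known to induce, had 0.21 (SE 0.23).

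The ligand itself was close to the limit of detection. Ifng, the gene of IFN-γ, drew 54 counts in control 1, 5 in control 3, 4 in control 65 and 0 in control 69, and among the treated mice 7 each in etanercept 19 and 50 and 0 in the other two, too few for the filter. Control 1, the mouse with the highest sum of the members, also had the most Ifng counts. Tnf, the target of etanercept, was counted 66 times in control 1, 18 times in control 3 and 8 times in etanercept 50, stood at 0 in the other mice, and was also left out by the filter. Ifnb1, Ifnl2 and Ifnl3, genes of type I and type III interferons, were at 0 in all mice, and the floor of 3 counts equals 0.119 to 0.218 CPM of the unscaled total. Of 6 tested ligand and receptor genes, 0 differed in either direction with an unadjusted p up to 0.05. Beside 3.63% lower and 2.99% higher of all tested genes, nothing is read from that count in so short a list. The receptor chains Ifngr1 and Ifngr2 had log2 changes of 0.09 (SE 0.34) and 0.26 (SE 0.18).

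Of 19 genes of interferon signal transduction, 5 had a lower level (2 without control 1) and 0 a higher one at that p, beside 3.63% and 2.99% of all genes, and their median log2 change was −0.34, or −0.05 without control 1. Irf1, a transcription factor that IFN-γ induces, had −0.51 (SE 0.19), Ciita, the master regulator of MHC class II, −1.03 (SE 0.37), and the feedback inhibitors Socs3 and Socs1 −1.23 (SE 0.29) and −1.02 (SE 0.55). Stat2 and Irf9, subunits of the complex that type I interferon activates, had −0.23 (SE 0.34) and −0.07 (SE 0.18), and Irf8 had −0.35 (SE 0.23). Nlrc5, the regulator of MHC class I genes, had −0.35 (SE 0.78) and 0.41 (SE 0.77) without control 1.

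The other genes known to be induced by IFN-γ ran in the direction of the members. All 20 tested genes had a negative log2 change, with a median of −0.86, and without control 1 it was 19 of 20 with a median of −0.73. At an unadjusted p up to 0.05, 8 of 20 were lower (beside 3.63% of all genes) and 0 were higher, and 7 were lower without control 1 (beside 2.82%). The immunoproteasome subunits Psmb8, Psmb9 and Psmb10 had log2 changes of −1.17 (SE 0.38), −1.05 (SE 0.35) and −0.91 (SE 0.28). Psmb8 had 254, 167, 133 and 56.1 CPM in the controls and 83.2, 54.9, 72.9 and 58.8 CPM in the treated mice, so that control 69 was the one control within the range of the treated mice. Ccl5, a chemokine, had −1.81 (SE 0.58), and −1.04 (SE 0.42) without control 1. Tap1, the peptide transporter, had −0.42 (SE 0.23), and the chemokines Cxcl9 and Cxcl10 had −0.54 (SE 0.32) and −0.42 (SE 0.36). B2m, the light chain of MHC class I, had −0.14 (SE 0.40) and 0.10 (SE 0.39) without control 1.

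Genes stimulated by type I interferon share ISRE control with the members and need no IFN-γ. Of 26 tested, 2 were lower (Bst2 and Oas1g) and 1 higher (Isg20) at an unadjusted p up to 0.05, beside 3.63% and 2.99% of all genes, and the median log2 change was −0.13, or −0.01 without control 1. Isg15 had 45.5 CPM in control 1 and between 6.83 and 9.23 CPM in the other controls, against 3.79, 8.29, 15.5 and 4.78 CPM in the treated mice. Ifit1, whose product binds foreign RNA, had 89.7, 19.7, 10.8 and 35.1 CPM in the controls and 10.8, 31.4, 98.9 and 12.7 CPM in the treated mice, so that etanercept 50 and control 1 stood above the rest. Etanercept 50 also had the highest Rsad2, at 40.1 CPM, whereas its 10 members summed to 178.7 CPM, among the lower mice. The log2 changes were −1.10 (SE 0.70) for Isg15, −0.02 (SE 0.79) for Ifit1, 0.01 (SE 0.55) for Ifit3, 0.30 (SE 0.34) for Mx1, 1.53 (SE 0.90) for Rsad2 (0.25 without etanercept 50) and −0.86 (SE 0.55) for Irf7. Bst2, which tethers enveloped viruses, had −0.80 (SE 0.16), with every treated mouse below every control mouse, and it was the 1 gene of the list that DESeq2 called (adjusted p = 0.0207); its adjusted p was 0.739 in edgeR.

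**Figure D5:**
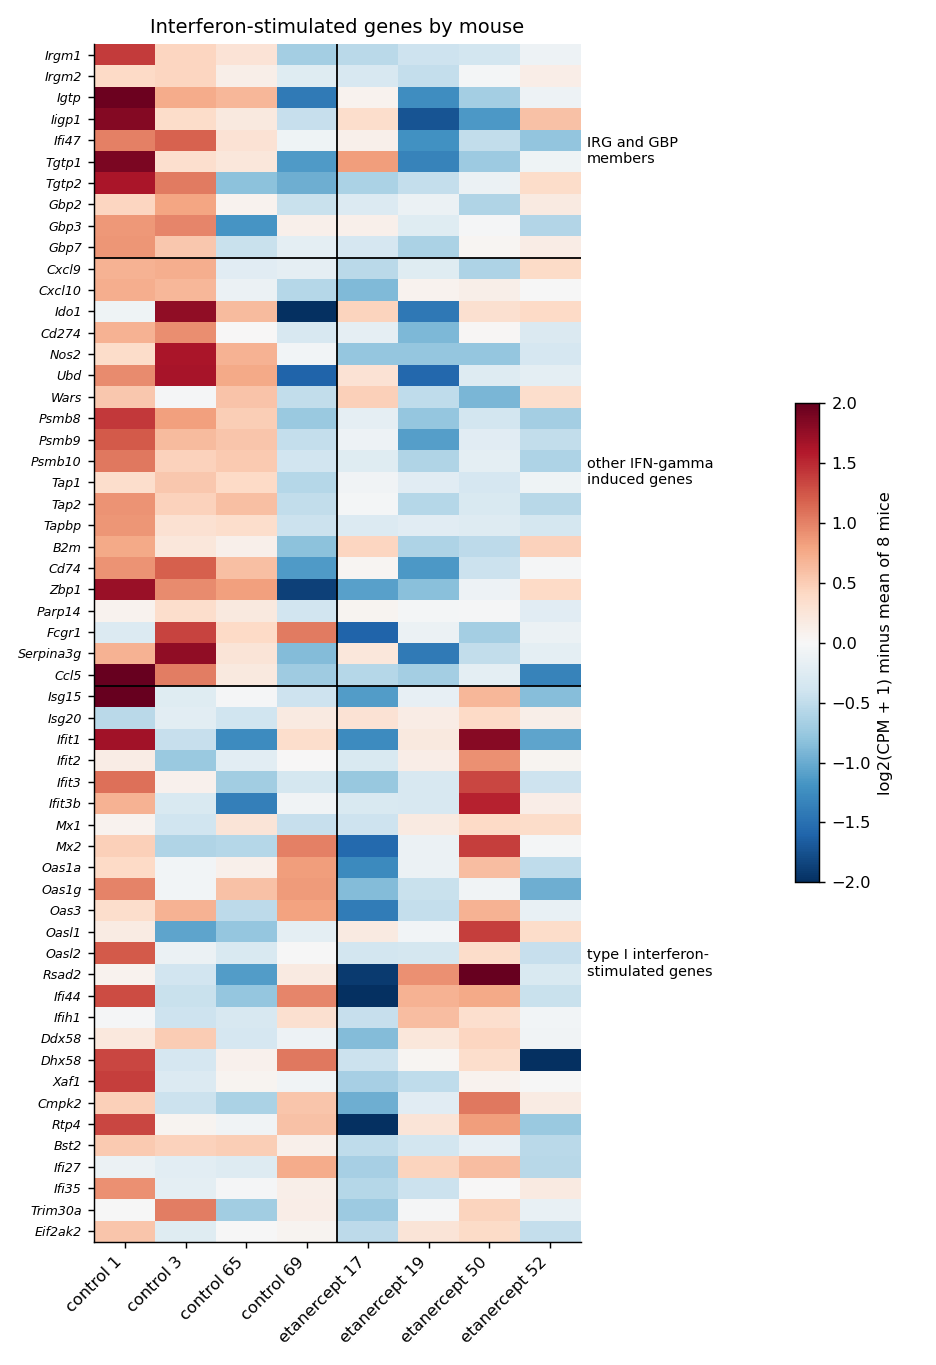
Log2(CPM + 1) of the 10 members, of 20 other genes induced by IFN-γ and of 26 genes stimulated by type I interferon in each mouse, minus the mean of the 8 mice per gene; colours saturate at 2 above or below the mean. Control 1 and control 3 are mostly red in the upper 2 blocks, whereas in the lower block Ifit1 and Ifit3 are red in control 1 and etanercept 50.

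Partners with which the GTPases work at the vacuole were read in the same way. Of 14 tested genes of autophagy and ubiquitin, 0 had an unadjusted p up to 0.05, with a median log2 change of 0.10. Of 8 inflammasome genes downstream of the GBP proteins, 0 were lower and 0 higher, with a median of −0.12. The shares among all tested genes were 3.63% in the lower and 2.99% in the higher direction. In lists as short as these, a count of 0 cannot be told apart from those shares, so nothing is read from it.

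Markers of immune cells were set beside the members. The 10 T cell markers, cells that can make IFN-γ, summed to between 68.3 and 185.5 CPM in the controls and between 53.5 and 83.2 CPM in the treated mice. Of these, 4 of 10 were lower at an unadjusted p up to 0.05 (3 without control 1), beside 3.63% of all genes, among them Lck and Cd3g with log2 changes of −1.08 (SE 0.31) and −1.09 (SE 0.36). The 8 natural killer cell markers summed to between 15.3 and 34.7 CPM in the controls and 6.70 and 20.96 CPM in the treated mice, and 0 of 5 tested were lower. The 10 macrophage markers summed to between 490.9 and 1556 CPM in the controls and 441.2 and 585.9 CPM in the treated mice, and 3 of 10 were lower (4 without control 1), among them C1qa with −1.18 (SE 0.37) and C1qb with −0.86 (SE 0.34). Plasma cell markers lay between 849 and 4503 CPM in the controls and 662 and 1367 CPM in the treated mice. Of 5 tested, 2 were lower (Mzb1 and Jchain), and 3 were lower without control 1. Of the 5, 4 had a negative log2 change and Derl3 a positive one, at 0.65 (SE 0.53). B cell markers lay between 91.3 and 365 CPM and between 39.6 and 166 CPM, and dendritic cell markers between 13.8 and 32.3 CPM and between 17.04 and 27.9 CPM, each with 0 lower. None of these markers was at 0 in all mice.

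Control 3 had the highest sum of the T cell, B cell, plasma cell, macrophage and dendritic cell markers, whereas control 1 had the highest sum of the members and of the natural killer cell markers. Control 1 had the lowest macrophage sum of the controls (490.9 CPM), within the range of the treated mice, with the highest levels of 6 members. The 6 adipocyte markers summed to 331 CPM in control 1 and 689 CPM in control 3, the mice with the highest sums of the members, and to between 20.2 and 113 CPM in the other mice. The part of these cells in the levels of the members was not tested. The labelled tissue was checked with 9 prostate epithelial markers, which summed to between 4564 and 12533 CPM in the controls and 4577 and 10841 CPM in the treated mice.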

How the data were processed

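Whole prostates of 8 NOD mice, 4 per group, were each sequenced as 1 poly(A)-selected library of paired reads. The authors deposited whole-number counts per gene and mouse without normalization. Per the submitters' processing notes the tools were fastp, STAR 2.6.1d, featureCounts 1.5.0-p3 and DESeq2 1.26.0 with build mm10; the counting options and the annotation are not given in the sources used here. The library kit does not mark strand, so reads of a gene and of an overlapping antisense gene cannot be told apart.

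Identifiers were named with GENCODE M21 of GRCm38. Of the 54532 identifiers, 37 had no entry there and held 0.00429% of the counts. Groups were compared by the quasi-likelihood test of edgeR 4.0.16, run in R 4.3.3, after TMM scaling and filterByExpr (minimum count 10), and p-values were adjusted by the Benjamini-Hochberg method over 15472 genes. The script was tested on simulated data. Levels are TMM-scaled CPM. Correlations used log2(CPM + 1) minus the group mean. Intervals are Wilson intervals at 95% and the floor is 3 counts; both cover counting error only. Alternatives were DESeq2 1.42.0, in which adjusted p-values given as NA stayed NA, other scalings and filters, robust fitting, subtraction of the exon-length trend (lowess, span 0.3), the range of animal numbers as a covariate, the sum of Tgtp1 and Tgtp2, and each mouse left out in turn. Ratios within the ranges of animal numbers were chosen after the data were seen.

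The 10 genes, the other gene lists and the marker lists were chosen with earlier results of these data known. The 10 genes were picked on the comparison described here, so no p is given for them. The other genes named are all tested relatives of the families, a set list of interferon pathway genes, at most 2 genes per direction of each other list with the smallest unadjusted p, and the 10 genes most like the members across mice. Results for 2 of the genes this rule names are not reported here.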

Additional observations from a re-analysis of the deposited data

How the results depend on the processing

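No paired analysis was possible because the groups share no animal numbers. The 10 members' log2 changes were negative in all 172 fits under 17 alternatives (18 for Tgtp1 and Tgtp2, with their sum), between −1.67 and −0.07. The genes were selected for this direction and the fits reuse the same mice, so nothing is read from the shared sign. Their median of −0.90 lay between −1.18 (without control 69) and −0.38 (without control 1) with single mice left out; within the animal numbers above 49, an alternative chosen after the data were seen, it was 0.03. The number of members lower at an unadjusted p up to 0.05 was 3, became 1 with the animal number range as a covariate, and ran from 1 (without control 1, control 3, etanercept 19 or etanercept 50) to 5 (without control 69) with single mice left out. The number of members with separate groups was 0 and ran from 0 to 3 (without control 69). No share of all tested genes is at hand for groups with a mouse left out, so nothing is read from these counts. Over all genes, 1024 had an unadjusted p up to 0.05, 854 had it with the animal number range as a covariate, and 675 (without control 65) to 1826 (without control 69) with single mice left out. DESeq2 called 21 genes where edgeR called 0, and 1 type I interferon-stimulated gene where edgeR called 0. Without division by exon length, 7 ranks in the order of levels changed. Among 33 other genes named, 29 of 556 fits turned the sign. Ifngr1 (0.09) became −0.01 with library size alone, B2m (−0.14) 0.18 and Ifit1 (−0.02) 0.02 without the length trend, and Ifit3 (0.01) −0.02 with RLE factors, −0.03 with upper-quartile factors, −0.11 with library size alone, −0.01 with at least 10 counts in every mouse and −0.02 in DESeq2. With single mice left out, the ranges crossed 0 for Gbp5 (−0.50 to 0.07 without control 3), Gbp8 (−1.72 to 0.01), Ifngr1 (−0.15 to 0.25), Stat2 (−0.52 to 0.01), Irf9 (−0.18 to 0.02), Nlrc5 (−0.96 to 0.41), B2m (−0.36 to 0.10), Isg15 (−1.62 to 0.01), Ifit1 (−1.08 to 0.80), Ifit3 (−0.74 to 0.51) and Irf7 (−1.14 to 0.01). The upper ends of Gbp8, Irf9, Nlrc5, B2m, Isg15, Ifit1, Ifit3 and Irf7 were those without control 1. The cause of these shifts was not tested.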

Other observations

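Tissue markers outside the immune system also differed between mice. Of 6 smooth muscle markers, 4 were higher with etanercept at an unadjusted p up to 0.05 (3 without control 1), beside 2.99% of all tested genes, among them Cnn1 and Actg2 with log2 changes of 1.35 (SE 0.45) and 1.35 (SE 0.44), and the list summed to between 3350 and 6987 CPM in the controls and 6423 and 13767 CPM in the treated mice. All 5 tested adipocyte markers were lower at that p, beside 3.63% of all tested genes, and DESeq2 called 2 of them after adjustment (Retn, adjusted p = 3.31e-05, and Fabp4, adjusted p = 0.0383, named after its values were seen), with sums between 50.8 and 689 CPM in the controls and 20.2 and 38.3 CPM in the treated mice. Seminal vesicle markers, genes of a neighbouring gland, summed to 97204 CPM in etanercept 17 and 4001 CPM in control 69 and to at most 668 CPM in the other mice. Skeletal muscle markers were highest in control 3, at 1765 CPM, fibroblast markers lay between 385 and 960 CPM in the controls and 512 and 910 CPM in the treated mice, and endothelial markers between 75.5 and 189 CPM and between 63.4 and 94.3 CPM.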
